A study of Homo sapiens with 34 samples.

Results

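Genomic sites bound by both active TAZ and active YAP, but without a called peak of either fusion protein, were examined in SW872 cells, an established human liposarcoma line. TAZ4SA and YAP5SA carry alanine in place of serines that the LATS kinases phosphorylate, which makes TAZ and YAP constitutively active. TAZ-CAMTA1 (TC) and YAP-TFE3 (YT) arise by gene fusion in epithelioid hemangioendothelioma, a sarcoma of vascular cells. In TC the amino-terminal part of TAZ is joined to the carboxy-terminal part of CAMTA1, and in YT that of YAP to that of TFE3. Peaks on chromosomes 1 to 22 and X of the lists for TAZ4SA, TC, full-length CAMTA1, YAP5SA, YT and full-length TFE3 were merged wherever they shared at least 1 bp. The 293 sites were then chosen by their measured peak calls: a TAZ4SA peak, a YAP5SA peak, and neither a TC nor a YT peak. They were 293 of 6543 merged regions. The presence of the active peaks and the absence of the fusion peaks are therefore given as description, and no test was made of them.

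All cells were SW872 stably transduced with a retroviral vector, either empty (EV) or carrying 1 construct with a double Flag tag. The antibody recognised the tag, so endogenous TAZ, YAP, CAMTA1 and TFE3 were not recovered as such, and the constructs were expressed from the vector in sarcoma cells rather than in the vascular cells of the disease. Each construct had 3 Flag immunoprecipitations from separate transductions and 2 input libraries, and EV had 2 IgG immunoprecipitations and 2 inputs, which made 34 libraries. The deposited descriptions have CAMTA1 cells collected below confluence and the others near it, whereas the study's methods have all cells near confluence. Reads of the replicates were pooled before peaks were called, so there was 1 list per construct and no error between replicates. Intervals are 95% Wilson intervals. They cover counting error alone and take each site as independent of its neighbours. The lists hold no expression values, so neither the level of each construct nor the identity of the cells was checked here.

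YAP and TAZ are transcriptional coactivators at the end of the Hippo pathway. They do not contact DNA by themselves and are brought to it mainly by TEAD transcription factors. LATS kinases phosphorylate YAP and TAZ on serines, which holds them in the cytoplasm, and the alanine forms escape that control. TC and YT keep the TEAD-binding amino terminus and gain parts of CAMTA1, a calcium- and calmodulin-linked transcription factor, or of TFE3, a basic helix-loop-helix factor of the MiT family. A site of both active forms without a fusion peak is thus a site where the shared amino terminus was not followed by a called fusion peak.

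TAZ4SA and YAP5SA peaks were found together in 821 regions. Neither fusion had a peak in 293 of them, or 35.7% (32.5% to 39.0%). Both fusions had a peak in 269, or 32.8% (29.6% to 36.1%), so the 2 outcomes were about equally frequent. YT alone was present in 195 regions (23.8%, 21.0% to 26.8%) and TC alone in 64 (7.80%, 6.15% to 9.83%). The share without a fusion peak was higher in regions of a single active form, with intervals that did not overlap that of the shared regions. Among regions with TAZ4SA and no YAP5SA peak, 259 of 335 had no fusion peak (77.3%, 72.5% to 81.5%). For YAP5SA without TAZ4SA it was 1905 of 2924 (65.2%, 63.4% to 66.9%). Over all 4080 regions with a peak of either active form, 60.2% had no fusion peak, and the shared regions fell below that background. Merging can join a TAZ4SA and a YAP5SA peak that do not touch through a fusion peak that overlaps each. At the 293 sites the active peaks always overlapped directly. Shared regions joined only through a fusion peak were not counted apart, and they would lower the share without one.

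**Figure D1:**
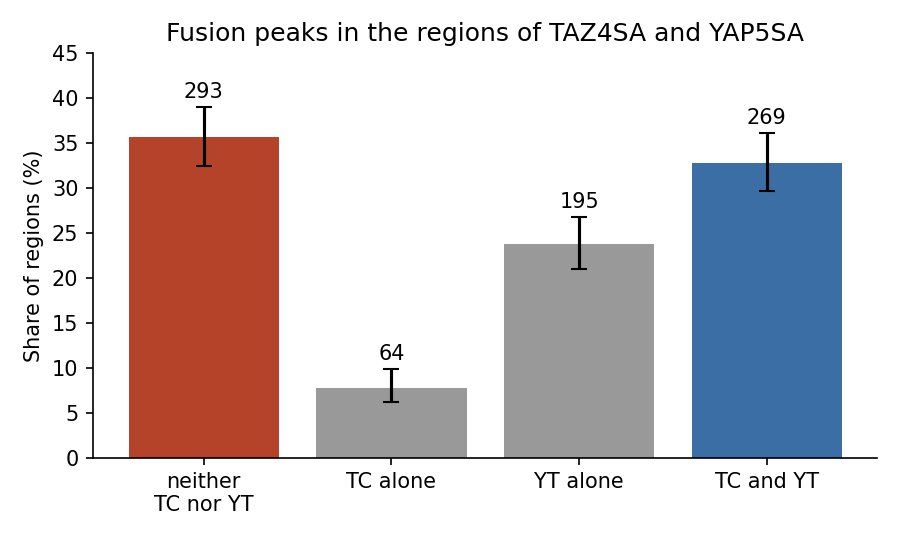
Share of the 821 regions with a TAZ4SA and a YAP5SA peak (y axis, percent) by which fusion also had a peak (x axis); error bars are 95% Wilson intervals and the numbers above the bars are counts of regions. The bars for neither fusion (293 regions) and for both fusions (269) are of similar height, and the bar for TC alone is the lowest (64).

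The boundary of the choice was an overlap of 1 bp. The site closest to a fusion peak, chr7:130873181-130873674, lay 21 bp from a YT peak and was kept. Just outside, chr5:31853831-31854967 was left out for a TC peak that overlapped the active peaks by 16 bp, and chr1:52363146-52364185 for a YT peak that overlapped by 140 bp. Positions are on the GRCh37 build throughout.

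Each of the 293 sites held exactly 1 TAZ4SA peak and 1 YAP5SA peak. Of the 269 regions with both fusions, 259 (96.3%) held 1 of each. The sites were narrow, with a median width of 457 bp (262 to 1488), against 852 bp for regions with both fusions, whose width also takes in the fusion peaks. The active peaks of a site shared a median of 272 bp, from 2 bp at chr9:117314351-117314980 to 857 bp. Their summits, the points of most fragments, were a median of 20 bp apart, and at 218 sites (74.4%, 69.1% to 79.1%) they were within 50 bp. The same spacing held in 200 of 269 regions with both fusions (74.3%, 68.8% to 79.2%), whose median distance was 25 bp. The spacing of TAZ4SA and YAP5SA summits was thus alike with and without fusion peaks, with intervals that overlapped almost completely.

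No site held a peak of full-length TFE3, CAMTA1 or EV IgG, which allows a share of up to 1.02% for each. TFE3 and CAMTA1 supply the carboxy-terminal parts of the fusions. Their own peaks fell in 298 (4.55%) and 156 (2.38%) of all merged regions, and EV IgG peaks in 2. The absence of TFE3 was not particular to these sites: of 2457 regions with an active peak and no fusion peak, 0.204% held a TFE3 peak. Of the same 2457 regions, 0.163% held a CAMTA1 peak and 0.0407% an EV IgG peak. TFE3 peaks were also found in 5 of 269 regions with both fusions (1.86%, 0.797% to 4.28%), and CAMTA1 peaks in none of those 269.

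Fold enrichment is the caller's ratio of fragments at the summit to the local background. In the TAZ4SA list the median fold enrichment was 6.24 at the 293 sites (2.85 to 24.5), 7.67 in regions with both fusions (2.71 to 50.8) and 5.99 over all peaks. In the YAP5SA list it was 5.39 at the sites (2.88 to 12.8), 7.18 in regions with both fusions (3.27 to 28.1) and 4.89 over all peaks. The medians of the sites were thus slightly above those of all peaks in each active list and below those of the regions where both fusions had peaks, with ranges that overlapped widely. By −log10 q their median rank was 543 of 1166 in the TAZ4SA list, near its middle, and 1243 of 3754 in the YAP5SA list, above its middle. TAZ4SA fold enrichment exceeded the median of the both-fusion regions at 92 of 293 sites (31.4%), YAP5SA at 51 (17.4%), and both did so at 41 (13.99%). Regions with 1 fusion lay between these medians, at 7.06 (TC alone) and 6.55 (YT alone) for TAZ4SA and at 5.89 and 6.40 for YAP5SA.

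By −log10 of the q-value, the caller's measure of confidence, the sites had medians of 9.58 (1.15 to 121) for TAZ4SA and 7.77 (1.103 to 39.5) for YAP5SA. In regions with both fusions the medians were 15.5 and 13.9. Ranked by this measure, 28 of the 100 strongest TAZ4SA peaks and 10 of the 100 strongest YAP5SA peaks belonged to the sites. Among the 500 strongest it was 134 and 51. Over the full lists the sites held 293 of 1166 TAZ4SA peaks and 293 of 3754 YAP5SA peaks, shares not far below these. An excess among the strongest peaks was not tested. At the weak end, q was above 0.01 at 9 sites in the TAZ4SA list and at 10 in the YAP5SA list, so most sites passed a stricter threshold in each active list.

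**Figure D2:**
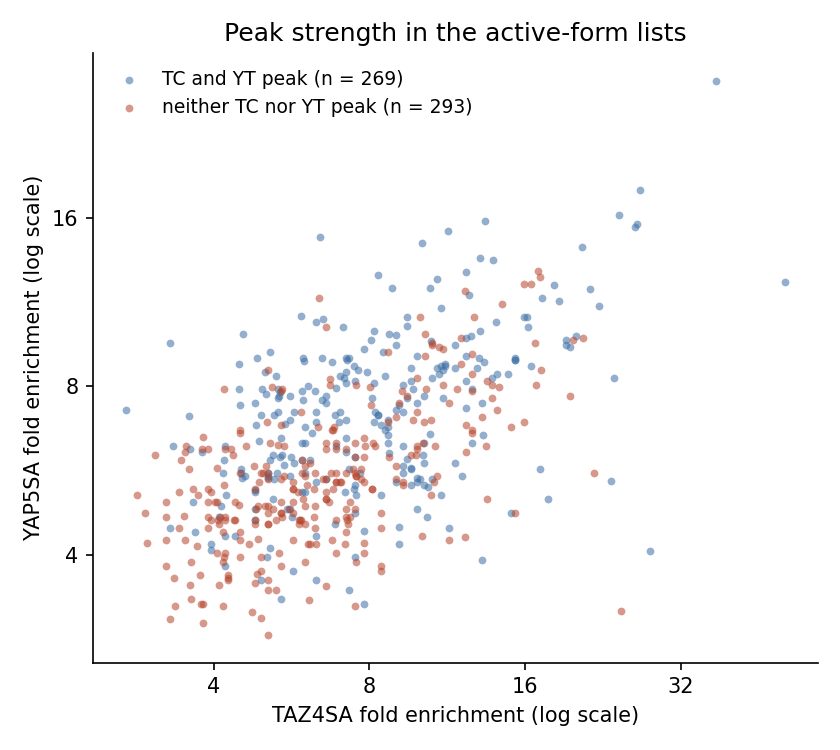
Fold enrichment of the TAZ4SA peak (x axis, log scale) against that of the YAP5SA peak (y axis, log scale) in each region, for the 293 sites without a fusion peak and the 269 regions with both fusions. The clouds overlap, with the sites shifted to lower values (medians of 6.24 against 7.67 for TAZ4SA and 5.39 against 7.18 for YAP5SA) and a single site far to the right at a low YAP5SA value.

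TAZ4SA and YAP5SA strength ran in parallel over the sites. Across the 293 sites the fold enrichments of both lists had a Spearman rho of 0.55 and a Pearson r of 0.58 on log2 values, and across the 269 both-fusion regions 0.44 and 0.49. This is a description across sites, which are not independent replicates and share 1 cell line and a common pool of libraries per list.

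How often a shared region lacked a fusion peak depended on how strong its active peaks were. The 821 regions were split into 4 equal parts by TAZ4SA −log10 q. From the strongest part to the weakest, 27.7% (22.01% to 34.2%), 30.7%, 35.6% and 48.8% (42.0% to 55.6%) had no fusion peak. By YAP5SA −log10 q the shares were 18.9% (14.2% to 24.8%), 26.8%, 40% and 57.1% (50.2% to 63.7%), a wider spread. Of the 121 regions in the strongest part of both rankings, 27 were sites without a fusion peak (22.3%, 15.8% to 30.5%) and 63 held both fusions (52.1%). Of the 106 in the weakest part of both, it was 62 (58.5%, 49.0% to 67.4%) and 14 (13.2%). Strong shared binding thus did not go with a fusion peak in every region, and in the weakest part sites without one were more numerous than regions with both fusions.

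**Figure D3:**
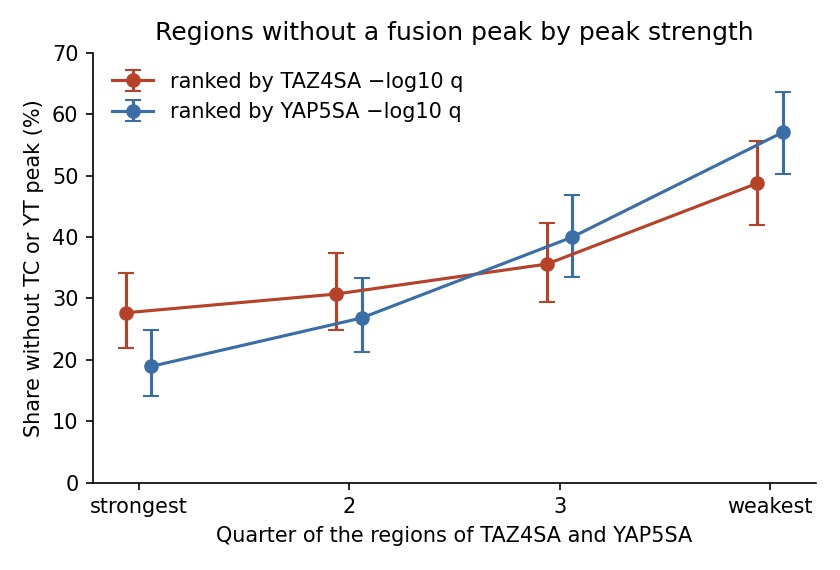
Share of the 821 shared regions without a TC or YT peak (y axis, percent) in 4 equal parts from strongest to weakest −log10 q (x axis), ranked by TAZ4SA or by YAP5SA; error bars are 95% Wilson intervals. The share goes from 27.7% to 48.8% by TAZ4SA and from 18.9% to 57.1% by YAP5SA.

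The strongest sites differed in how the active forms shared them. The site with the highest TAZ4SA value was chr11:131211956-131212560, with a TAZ4SA fold enrichment of 24.5 (rank 5 in its list) and a YAP5SA fold enrichment of only 3.17 (rank 2483). The next, chr1:112320702-112321654, had 21.8 (rank 9) and 5.61 (rank 1243). Both leaned to TAZ4SA, although at the former site the YAP5SA background was 2.74 times its lowest value, which lowers fold enrichment.

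Other strong sites were high in both lists. At chr9:114792299-114792610 fold enrichment was 16.9 for TAZ4SA (rank 37) and 12.8 for YAP5SA (rank 21), with the summits 0 bp apart. The values were 16.4 and 12.2 at chr7:46185015-46185777, whose summits were 1 bp apart. They were 17.1 and 12.6 at chr4:84128853-84129225, and 15.9 and 12.2 at chr12:46887781-46888640. These 4 sites were strong in either active list and had no called fusion peak. At chr1:109045698-109046076 fold enrichment was 20.7 for TAZ4SA and 9.76 for YAP5SA, at chr3:197216978-197217273 it was 19.8 and 9.69, and at chrX:46187015-46187360 it was 19.5 and 7.69.

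A smaller group leaned to YAP5SA. At chr20:52757051-52758060 fold enrichment was 11.5 for YAP5SA (rank 44) and 6.40 for TAZ4SA (rank 518). At chr20:4206376-4206805 it was 10.2 and 6.61. The nearest YT peak was 7099 bp from the former site and 638 bp from the latter. Set to the same scale, as fragments at the summit divided by the mean coverage of the list, the TAZ4SA level was a median of 1.48 times the YAP5SA level (0.664 to 6.003, n = 285 sites with both values recovered) and was higher at 252 of the 285 (88.4%). Regions with both fusions had a median of 1.42 and a higher TAZ4SA level in 209 of 255 (82.0%), so the lean was shared and not a feature of sites without fusions. The calling floors of the lists were also unlike. At the lowest background a call needed 4.73 times that background in the TAZ4SA list and 3.66 times in the YAP5SA list. Choosing regions by peak calls thus favours a higher TAZ4SA level, and this part of the lean was not separated. The TAZ4SA and TC lists came from a shallower set of libraries than the YAP5SA and YT lists, and the construct family and the set of libraries cannot be told apart here.

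Whether a missing fusion peak could have been seen depends on depth. From the fold enrichment and the p-value of a peak, the fragments at its summit and its local background were recovered. Reads were not counted here. The lowest recurring background of a list, put in fragments, was taken as its mean coverage. It came to 2.33 fragments per base for TAZ4SA, 2.52 for TC, 10.7 for YAP5SA and 10.5 for YT. By this estimate each fusion list was about as deep as that of its active parent. At the lowest background a peak needed 11 fragments in the TAZ4SA and TC lists, 40 in the YAP5SA list and 37 in the YT list.

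At the sites, TAZ4SA summits held a median of 22.5 fragments (11 to 117, n = 286) and YAP5SA summits 73 (42 to 186, n = 292). Regions with both fusions had medians of 30 and 99. The local background was at the lowest value of the list at 116 of 286 sites for TAZ4SA (40.6%) and at 261 of 292 for YAP5SA (89.4%), and in regions with both fusions at 86 of 257 (33.5%) and 225 of 267 (84.3%). Over the sites the background was a median of 1.13 times the lowest value for TAZ4SA (up to 4.81) and at the lowest value for YAP5SA (up to 4.57 times), and the upper quartile for TAZ4SA was 1.43 times.

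For each site, the fragments that TC or YT would have needed for a call at the same relative background were compared with the active parent's summit carried over to the fusion's coverage. A site was counted as above the limit when even the lower 95% Poisson limit of the active level exceeded that need. This was so for TC at 186 of 286 sites (65.0%, 59.3% to 70.3%), and 60.9% of all TAZ4SA regions met the same condition. It was so for YT at 267 of 292 sites (91.4%, 87.7% to 94.1%), and 83.4% of all YAP5SA regions did. Both limits were passed at 179 of 285 sites (62.8%, 57.1% to 68.2%) and neither at 18 (6.32%). Over all shared TAZ4SA and YAP5SA regions with recovered values, 566 of 788, or 71.8%, passed both, and 212 of 255 regions with both fusions did (83.1%, 78.1% to 87.2%). The sites were thus below that background. The Poisson limit covers counting error alone. It holds neither the variation between replicates nor the choice of summits by their having been called, and fragments amplified by PCR are not independent molecules. Only the summit was compared, and not the width of the enrichment. The narrowest called peaks were 256 bp in the TAZ4SA list and 196 bp in the YAP5SA list.

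Over all regions of an active form, passing the limit did not always go with a fusion peak. These regions include the sites, 186 of them above the TC limit and 267 above the YT limit. The sites lack a fusion peak by definition, so in the shares that follow they are among the regions without one. TC had a peak in 294 of 683 TAZ4SA regions above its limit (43.0%) and in 76 of 438 not above it (17.4%). YT had a peak in 1199 of 3084 YAP5SA regions above its limit (38.9%) and in 142 of 615 not above it (23.1%). In regions with both fusions, TC had a median of 86.6% of the TAZ4SA level (quartiles of 64.6% and 112.5%, n = 244). YT had a median of 77.3% of the YAP5SA level (quartiles of 59.8% and 108.3%, n = 266). The medians were below the active level and the upper quartiles above it. These medians leave out uncalled fusions. When the active level was lowered to those shares first, 126 of 285 sites (44.2%, 38.6% to 50.02%) remained above both limits, so the count rests in part on how strong a fusion is taken to be.

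**Figure D4:**
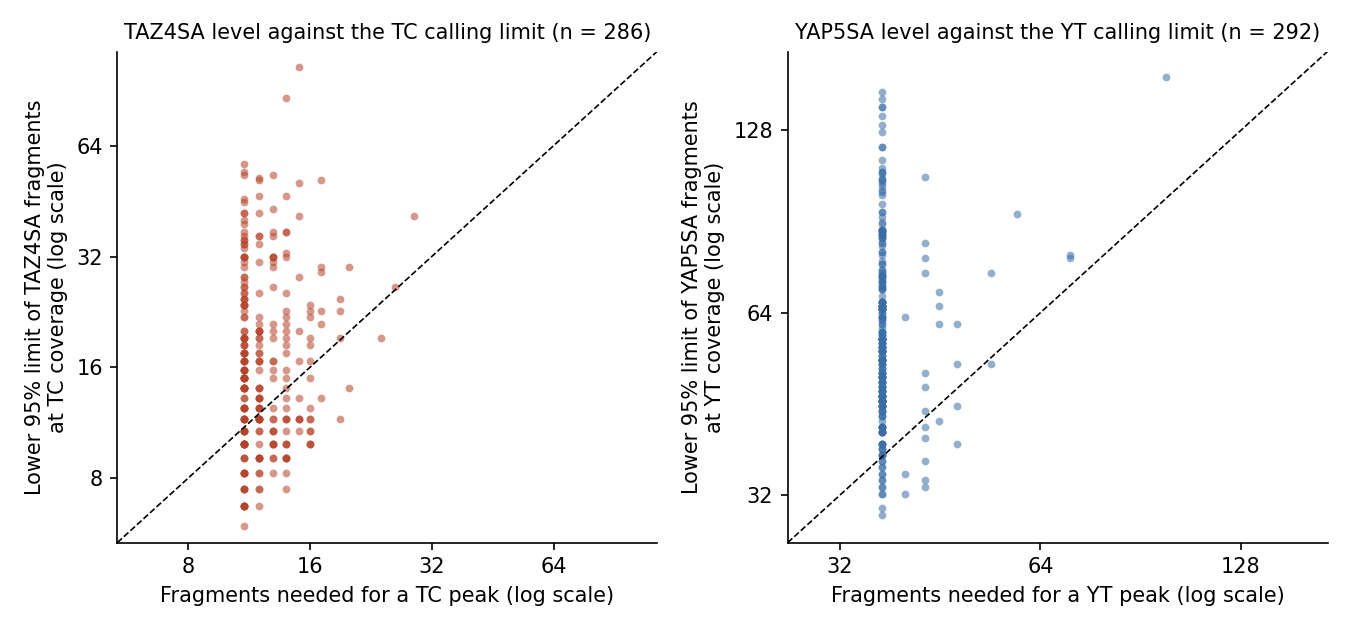
Fragments a fusion peak would need at each site (x axis, log scale) against the lower 95% Poisson limit of the active parent's summit fragments at the fusion's coverage (y axis, log scale), for TC against TAZ4SA (left, n = 286) and YT against YAP5SA (right, n = 292); the dashed line marks equality. Points above the line, 186 on the left and 267 on the right, are sites whose active level, by counting error alone, exceeds the fragments needed for a call.

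The same quantities gave a nominal ceiling for an uncalled fusion, the smallest callable level as a percent of the active level. The median ceiling was 50.01% for TC (11.8% to 99.4%) and 52.4% for YT (21.4% to 95.4%). It was 11.8% for TC at chr11:131211956-131212560 and 13.2% at chr1:112320702-112321654, the strongest TAZ4SA sites. At chr9:114792299-114792610 it was 17.9% for TC and 21.4% for YT, and at chr4:84128853-84129225 18.1% and 21.9%. The values of 11.8% for TC and 21.4% for YT were the lowest of all sites with a recovered level. At chr11:27955541-27956141, where TAZ4SA had its weakest q among the sites (−log10 q of 1.15), the TC ceiling was 99.4%, and at chr6:152811968-152812618, the weakest for YAP5SA (1.103), the YT ceiling was 89.9%. A lower fusion level at such sites was not detectable at this depth. A ceiling takes the fusion's local background, relative to coverage, to be that of its active parent. It is a ratio of point values at the summit alone, with no counting error on either side. The true fusion level could thus lie above it.

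Most sites had no fusion peak within 10 kb. Distances from randomly placed regions were not computed, so whether the sites lay nearer or farther than those was not tested. The median distance from a site to the nearest fusion peak was 126530 bp, with 413430 bp to the nearest TC peak and 137990 bp to the nearest YT peak, from the longer YT list. A fusion peak lay within 1 kb of 9 sites (3.07%, 1.62% to 5.73%), within 10 kb of 34 (11.6%, 8.42% to 15.8%) and within 100 kb of 133 (45.4%, 39.8% to 51.1%). Regions of a single active form without a fusion peak lay nearer, with a median of 79328 bp and shares of 3.88%, 17.4% and 54.1% (52.0% to 56.2%) among 2164. The sites were thus somewhat farther from fusion peaks than those regions at 10 and 100 kb, and at 1 kb the intervals overlapped. Both fusions were near at chr8:23212662-23212935, 227 bp from TC and 375 bp from YT. The most remote site, chr3:99620211-99620692, lay 11833365 bp from a TC peak and 13844558 bp from a YT peak. Of the strong sites, chr9:114792299-114792610 had TC at 10873 bp and YT at 11178 bp, whereas chr7:46185015-46185777 had its nearest fusion peak, of YT, at 786468 bp.

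**Figure D5:**
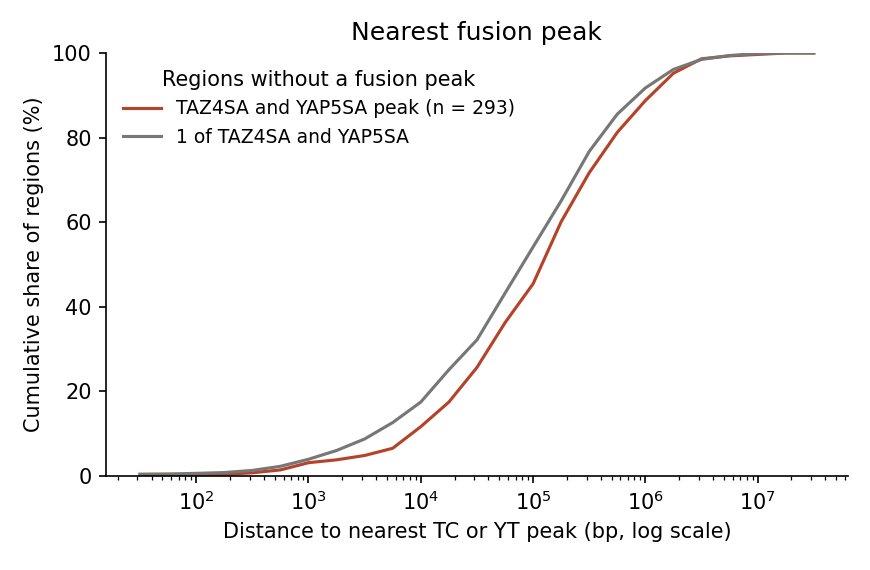
Cumulative share of regions (y axis, percent) with a TC or YT peak within a given distance (x axis, bp, log scale), for the 293 sites and for the 2164 regions that hold a peak of 1 active form and no fusion peak. The line for the sites runs lower through the middle of the range (45.4% against 54.1% at 100 kb).

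The sites were spread over the genome. The median distance from a site to the next was 2248500 bp, and another site lay within 100 kb for 33 of 293 (11.3%) and within 10 kb for 6. The closest neighbours were 202 bp apart. Only 4 stretches of up to 1 Mb held as many as 4 sites. They were chr11:124624439-125133659 and chr9:74278773-75058572, where the 4 sites were all the shared TAZ4SA and YAP5SA regions present, chr9:114490761-114813142, with 4 of 5, and chr11:129731685-130631856, with 4 of 7. In the chr9:74278773-75058572 stretch the sites were of modest strength, with TAZ4SA fold enrichment of 3.95 to 7.70 and YAP5SA of 4.39 to 5.68. The nearest TC peak was at 110607 bp or more and the nearest YT peak at 1062169 bp or more. The chr11:129731685-130631856 stretch was mixed, and 1 of its sites, chr11:130494723-130495122, lay 597 bp from a TC peak.

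By chromosome, 33 sites were on chromosome 5 (11.3%, 8.13% to 15.4%), where 15.9% of all merged regions lay. Chromosome 11 held 30 sites (10.2%, 7.27% to 14.2%) and 7.84% of all regions, a share within that interval. Chromosome 20 held 13 sites (4.44%, 2.61% to 7.44%) and 7.24% of all regions. Of the regions with both fusions, 11.15% lay on chromosome 5, 11.9% on chromosome 11 and 8.55% on chromosome 20. On chromosomes 5 and 11 these were near the shares of the sites. Of the shared regions on the same chromosome, 13 of 53 had no fusion peak on chromosome 20 (24.5%, 14.9% to 37.6%), 26 of 90 on chromosome 7 (28.9%), 33 of 96 on chromosome 5 (34.4%) and 15 of 23 on chromosome 6 (65.2%, 44.9% to 81.2%). These chromosomes were singled out after their values were seen. Sites on a chromosome are not independent, and no test was made.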

How the data were processed

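The members and all lists were chosen with earlier results of these data known. Per the study's methods, the authors pooled replicate reads, trimmed them with Atropos, aligned them to GRCh37 with BWA-MEM, removed multi-mapping reads and greylisted regions, and called peaks with macs2 on whole fragments. The control libraries of each list are not given in the sources used here. The deposited fold enrichment is a ratio of summit pileup to local background, as the authors' caller wrote it. The p-value and q-value were deposited as −log10 values, and the summit was deposited as an offset in bp. The deposited labels list GRCh38, but 45 of 10414 peaks ended past the GRCh38 chromosome of that name, so positions were read as GRCh37, and 515 peaks on scaffolds were left out. The supplied genome was GRCh38, so sequences, motifs and nearest genes were not analysed here.

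The strongest peak by −log10 q represented a list in a region. Fragments and background were solved from fold enrichment and p within a tolerance of 0.03 fragments, for 96.5% to 98.7% of peaks of the TAZ4SA, TC, YAP5SA and YT lists. The tolerance was widened in proportion at summits with many fragments. On 400 peaks simulated for each kind of list, 93.8% and 97.5% were right and 0% wrong. The simulated peaks were made with the formulas that were inverted. They covered neither the lowest nor the highest fold enrichments of the sites. Pooled lists give no replicate error, so no test was run and no p-value computed. A share of 0 is given with the limit that 3 counts allow. Named sites were the 10 strongest by −log10 q in each active list, the 3 highest by fold enrichment, the weakest, and the nearest to and farthest from fusion peaks. Ceilings and joint strength parts were added after the values were seen. Alternatives changed the overlap, gap, q, list length, distance, chromosomes, strength measure and number of parts. Software was matplotlib 3.10.9, scipy 1.17.1, pandas 2.3.3 and numpy 2.4.6 under Python 3.11.15.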

Additional observations from a re-analysis of the deposited data

How the results depend on the processing

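Of 34 alternatives over 8 results, 31 stayed within the limits set for a change. For the share of shared regions the limit was the 95% interval of the main value. For all else it was a factor of 1.5, so large shifts could count as within it. The number of sites was 293 and became 183 when the 4 lists were shortened to the 1166 strongest peaks each, out of 478 shared regions. Under the other alternatives it was 259 to 296. The share of shared regions without a fusion peak rose from 35.7% to 46.3% under 50% reciprocal overlap, where only 639 regions counted as shared, and was 31.6% when a fusion peak within 10 kb also counted as present. The 126 sites above both limits, against 179, came from an alternative added once the data had been seen. That fall was within the factor of 1.5. No paired analysis was possible because replicates were pooled in every deposited list, and runs without a replicate could not be made either. Fewer sites passed the TC limit than the YT limit, and the TAZ4SA and TC lists rest on lower coverage. Construct family and set of libraries cannot be told apart.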

Other observations

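The opposite pattern was less frequent. Of 604 regions with both a TC and a YT peak, 105 had neither a TAZ4SA nor a YAP5SA peak (17.4%, 14.6% to 20.6%), against 293 of 821 regions of both active forms without a fusion peak (35.7%). The count of 105 ranged from 76 to 112 under the alternatives. The difference was not tested, since the same peak calls define both counts.

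Where a single fusion was present in a shared region, its level at the summit, per mean coverage, had a median of 0.747 times the TAZ4SA level for TC alone and 0.743 times the YAP5SA level for YT alone. In regions with both fusions the medians were 0.866 and 0.773.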
